A study of Arabidopsis thaliana with 12 samples.

Results

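The transcripts described here are those of the chloroplast genome of Arabidopsis thaliana: 69 protein-coding genes with a plastid locus tag, each read by 1 probe set that names a single gene. They were taken from 22746 tested probe sets, which name 13356 genes singly. The plastid chromosome of the gene table holds 84 protein-coding entries with 78 distinct symbols. A further 8 plastid probe sets were paired with 2 gene entries, the copies of a repeat, and were left out. No gene had a second single-gene probe set, so a rule to keep the brightest was never needed. By symbol the members were 5 psa, 15 psb, 6 pet, 6 atp, 10 ndh, 8 rps, 7 rpl, 4 rpo and 8 other genes. The members were chosen by genome and not by any measured value.

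The arrays came from liquid cultures of wild-type Col-0 seedlings, aged 9 days and then kept in the dark for 24 h before and throughout treatment. Oligomycin, which blocks ATP synthesis in mitochondria, was given at 10 µM, and control cultures received as much of the solvent, ethanol. Harvest after 1 h or 4 h gave 4 groups of 3 arrays, 12 in all, and the labels call the replicates biological. Every group therefore shared the genotype, the sucrose-containing medium and the dark period, and no light-grown or untreated group was among them.

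Plastids keep a small genome whose genes encode core subunits of the photosynthetic complexes and of the plastid's own ribosome and RNA polymerase. The plastid-encoded polymerase, built from the rpo gene products, transcribes mainly photosynthesis genes with the help of nuclear sigma factors, while a nuclear-encoded polymerase of the phage type transcribes housekeeping genes, among them the rpoB-rpoC1-rpoC2 unit. Most plastid genes lie in units transcribed together, and RNA processing and decay set much of each transcript's level. Plastid transcripts carry no stable poly(A) tail, and short A-rich tails mark them for decay. The labelling kit named in the labels primes with oligo(dT), so the intensities are those of plastid RNA that could be primed, which need not follow the total plastid RNA. In whole seedlings, fewer plastids or fewer green cells cannot be told apart from less RNA per plastid.

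Intensities are linear values per probe set as deposited, given as mean ± SD (n = 3), or for each array in the order of replicates 1, 2 and 3. Changes are differences of log2(intensity + 16) with their standard error (SE), a scale that understates changes of dim genes. "Rose" and "fell" mark a limma test with an adjusted p under 0.05 over all 22746 probe sets. The mean intensity over 12 arrays was below 16 for 5 members: rpoB, psaC, ndhF, rps14 and atpI. The files hold no detection calls, and 3 arrays a group limit the precision. Within groups the arrays correlated at 0.983 or more over the members. Over all probe sets, the lowest correlation within a group was 0.975, between replicates 1 and 2 of ethanol at 1 h. Of the tissue markers listed, none of 6 leaf genes and 3 of 9 root genes had a single-gene probe set. The root gene PYK10 had a mean of 2491, while EXPA7 and EXPA18 had means of 17.4 and 26.7.

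Each array was summarised by the median, over the 69 genes, of the deviation of log2(intensity + 16) from the gene's mean over all arrays. This median was 0.07 ± 0.09 in ethanol at 1 h and 0.11 ± 0.05 in oligomycin at 1 h. It was -0.15 ± 0.04 in ethanol at 4 h and -0.02 ± 0.08 in oligomycin at 4 h. The 3 ethanol arrays of 4 h were the 3 lowest of the 12, and every array of 1 h lay above them. The arrays of oligomycin at 4 h ran from -0.08 to 0.07 and overlapped those of ethanol at 1 h.

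**Figure D1:**
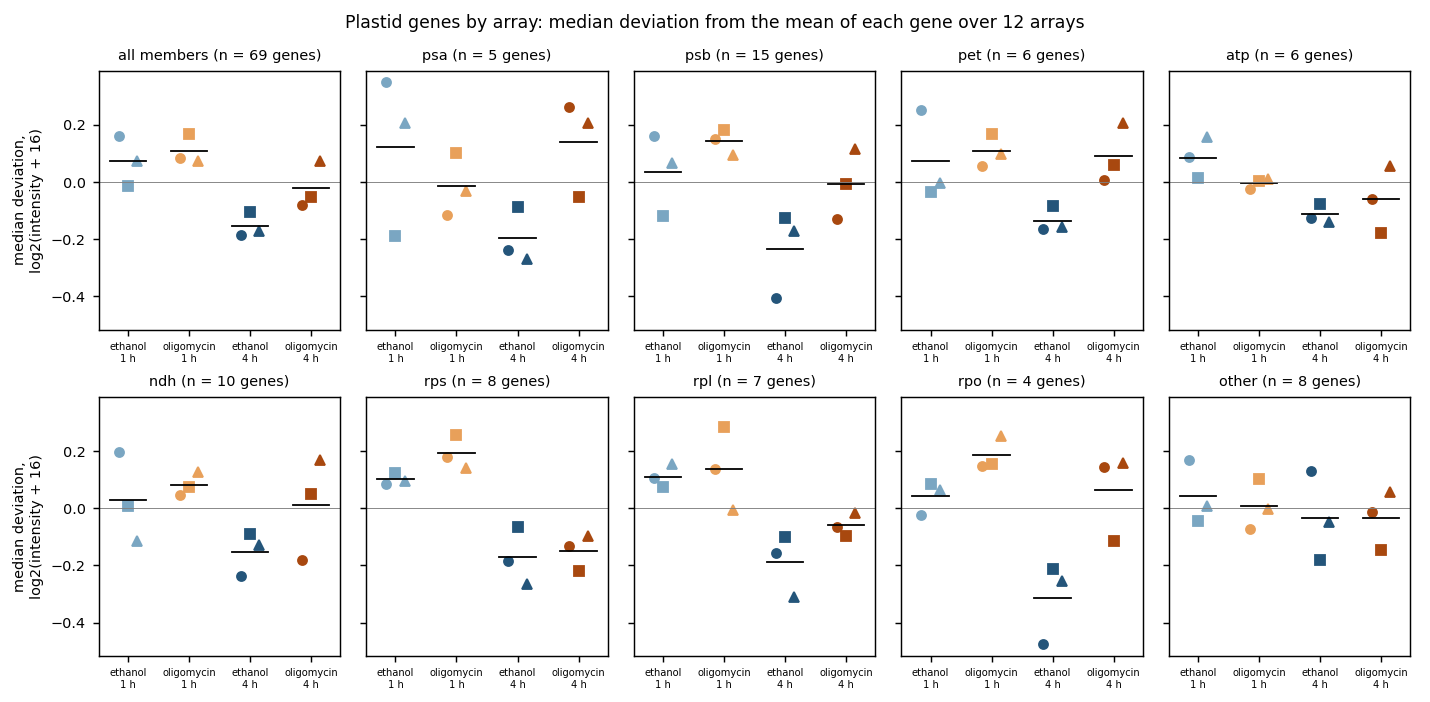
Median deviation of plastid genes from their mean over 12 arrays (vertical axis, log2 scale) for each array, over all 69 genes and by symbol group. Points are arrays, with circle, square and triangle for replicates 1, 2 and 3, and the line is the group mean; over all 69 genes, the ethanol arrays of 4 h are the lowest.

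In the ethanol control, most plastid transcripts were lower at 4 h than at 1 h. The change was below 0 for 61 of 69 genes (88.4%, against 59.3% of all probe sets), with a median of -0.24 against -0.03 over all probe sets. For 25 genes (36.2%) all 3 arrays of 4 h lay below all 3 arrays of 1 h, against a background of 9.1% of probe sets. For none did they all lie above, against a background of 5.07%. No plastid gene was called by limma, where 0.00879% of all probe sets were called. At an unadjusted p under 0.05 the fit counted 25 plastid genes (36.2%) and 2712 of all probe sets (11.9%). Leaving out any 1 array of these groups left 57 to 67 genes below 0. Without replicate 2 of ethanol at 1 h, 1 gene was called lower, psaI (adjusted p = 0.0310, limma), which encodes a small subunit of photosystem I. That fit also called more of all probe sets, 90 higher and 43 lower.

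The separation in ethanol varied in share by symbol group, and differences between groups were not tested. All 3 arrays of 4 h lay below those of 1 h for 5 of 8 rps and 4 of 7 rpl genes. The same was found for 3 of 6 atp, 3 of 6 pet, 5 of 15 psb, 2 of 5 psa and 2 of 4 rpo genes, and for 1 of 10 ndh genes, near the background. None of the 8 other genes separated, and their median change was -0.03. Among these were rbcL, the large subunit of Rubisco, and accD, a subunit of acetyl-CoA carboxylase, both picked out after their values had been seen. The rbcL intensity was 179.8 ± 16.9 at 1 h and 185.2 ± 26.4 at 4 h, and that of accD was 63.0 ± 8.43 and 62.5 ± 6.52. Their arrays overlapped between the times.

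With oligomycin at 4 h, more plastid genes lay above the ethanol control than below it. Changes ran from -0.39 to 0.71 with a median of 0.18, against -0.10 over all probe sets, and 52 of 69 genes were above 0 (75.4%, against 36.2% of all probe sets). By limma 8 of 69 plastid genes rose, a share near the 11.4% of all probe sets that did, and 1 fell, where 25.3% did. The 9 calls made up 13.0% of the members, and 36.7% of all probe sets were called in either direction. All 3 oligomycin arrays lay above all 3 ethanol arrays for 17 genes (24.6%, background 14.5%) and below them for 1 gene (1.45%, background 32.3%). Separation is easier to reach with an array left out. Without replicate 1 of oligomycin at 4 h, 32 genes separated upward (46.4%, background 16.9%). The count separated downward became 6 without replicate 3 of ethanol at 4 h (8.70%, background 36.9%). It became 7 without replicate 3 of oligomycin (10.1%, background 34.8%). It was 2 (2.90%) without ethanol replicate 2 or oligomycin replicate 1 or 2 (backgrounds 37.1%, 39.6% and 36.0%). Without replicate 1 of ethanol at 4 h the 9 calls became 3, beside 2324 rises and 4932 falls of all probe sets. Without replicate 3 of oligomycin at 4 h they became 4, beside 2343 rises and 4717 falls. Leaving out that oligomycin array also took the plastid median to 0.11.

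The split of the calls moved with the scaling of the arrays. With each array centred on its median, 24 plastid genes rose and none fell, while 16.9% of all probe sets rose and 15% fell. With quantile normalization 12 plastid genes rose and none fell, beside 13.3% and 20.4% of all probe sets. With scaling to the hybridisation controls 9 rose and none fell, beside 11% and 16.4%. Centring, which shifts all probe sets of an array alike, moved the median of all probe sets from -0.10 to 0.06. The plastid median stood 0.28 above that of all probe sets, and 0.19 above it with quantile normalization. The array's 25S ribosomal RNA control also moved with this comparison, from 1677 ± 125 in ethanol to 2440 ± 46.4 in oligomycin at 4 h. The 11 measured mitochondrial-genome genes, organelle transcripts that also lack stable tails, had a median change of 0.77. With the scaling as deposited 9 of them rose, where 11.4% of all probe sets did. The 3'/5' signal ratio of the GAPDH control was 0.989 ± 0.0337 in ethanol and 0.936 ± 0.0325 in oligomycin, and that of the Actin control was 3.20 ± 0.0763 and 3.55 ± 0.298. For the ubiquitin control it was 1.09 ± 0.0103 and 1.07 ± 0.123. Of the 3 measured root markers PYK10 and EXPA18 fell, where 25.3% of all probe sets did. None of the 3 was at 0, and their summed intensity ran from 2665 to 2900 in ethanol and from 1629 to 1702 in oligomycin. The part of these in the plastid result was not tested.

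**Figure D2:**
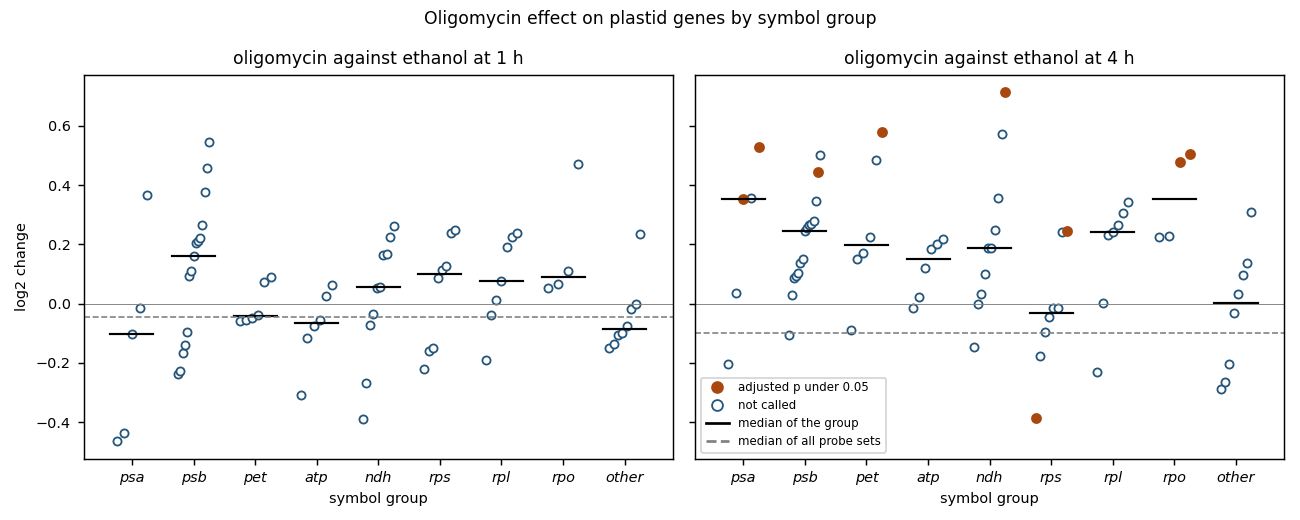
Log2 change with oligomycin against ethanol (vertical axis) for each plastid gene by symbol group, at 1 h (left) and 4 h (right). Filled points passed the limma test, black lines are group medians and the dashed line is the median of all probe sets; at 4 h the medians of psa and rpo genes are both 0.35 and that of rps genes is -0.03.

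Among the polymerase genes, 2 of 4 rose with oligomycin at 4 h. For this and the groups that follow, the shares over all probe sets were 11.4% rising, 25.3% falling and 36.2% above 0. The groups are small, and differences between them were not tested. The genes rpoC1 and rpoC2 encode the beta-prime and beta-double-prime subunits of the plastid-encoded polymerase. For rpoC1 the ethanol arrays of 4 h read 58.4, 64.9 and 69.7, and the oligomycin arrays 120, 72.8 and 99.7. For rpoC2 they read 43.4, 45.9 and 54.1, and with oligomycin 65.9, 60.5 and 101.5. In both genes the lowest oligomycin array lay just above the highest ethanol array. The rise of rpoC1 was 0.48 (SE 0.13, adjusted p = 0.0129, limma) and that of rpoC2 0.50 (SE 0.14, adjusted p = 0.0153, limma). At 1 h the same genes were at 92.8 ± 2.19 and 72.3 ± 5.82 in ethanol, so the ethanol level of 4 h was the lowest of the 4 groups for each. Each call was lost without replicate 1 of ethanol at 4 h, that of rpoC1 also without oligomycin replicate 1 and that of rpoC2 without oligomycin replicate 3. The other polymerase genes were not called. For rpoA, the alpha subunit, the ethanol arrays of 4 h read 516.4, 690.4 and 597.6, and the oligomycin arrays 461.2, 921.1 and 808.7. These overlapped (0.23, SE 0.25). The beta subunit gene rpoB, first of its unit, was too dim for a clear reading, at 6.87 ± 3.23 and 10.8 ± 4.11.

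The ribosomal protein genes pointed both ways. Of 8 rps genes 1 rose and 1 fell, and 6 lay below 0, while 6 of 7 rpl genes lay above 0 with a median of 0.24 and none was called. The gene rps3, a small-subunit protein, read 966.2, 955 and 887.4 in ethanol and 1154.8, 1117.5 and 1061.2 in oligomycin. It rose by 0.24 (SE 0.08, adjusted p = 0.0367, limma), with no overlap. The gene rps16, also of the small subunit, read 58.9, 54.9 and 47.4 in ethanol and 29.4, 43.4 and 39.8 in oligomycin. It was the only member to fall (-0.39, SE 0.12, adjusted p = 0.0225, limma), and every oligomycin array lay below every ethanol array. Neither call was firm: that of rps3 was lost without any one of 5 of the 6 arrays compared, with quantile normalization, with a pseudocount of 1 and with only these 6 arrays in the fit, and that of rps16 without any one of 3 arrays and with each of the 3 other scalings. Among genes not called, rps4 was at 1043 ± 31.5 and 1040 ± 159. Of the large-subunit genes, rpl22 was at 873.3 ± 59.5 and 1123 ± 198 (0.34, SE 0.13, adjusted p = 0.0565, limma) and rpl20 at 38.9 ± 13.5 and 50.8 ± 8.36 (0.31, SE 0.15, adjusted p = 0.149, limma). Both overlapped.

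The photosystem I core genes psaA and psaB, whose products together bind the reaction centre, both rose at 4 h. The psaA arrays read 60.1, 41.8 and 73.3 in ethanol and 102.4, 78.8 and 88.8 in oligomycin. The psaB arrays read 1110, 1162.8 and 1024.6 in ethanol and 1625.6, 1191.2 and 1431.1 in oligomycin. Neither gene's groups overlapped, although oligomycin replicate 2 stood close to the ethanol arrays in both. The rises were 0.53 for psaA (SE 0.16, adjusted p = 0.0209, limma) and 0.35 for psaB (SE 0.12, adjusted p = 0.0311, limma). The psaA call was lost without any one of 3 arrays: ethanol replicate 2 and oligomycin replicates 1 and 3 of 4 h. The psaB call was lost without any one of 4 arrays, with quantile normalization, with a pseudocount of 1 and with only these 6 arrays in the fit. In the psa group 4 of 5 genes lay above 0. The exception was psaJ, a small subunit, at 388.6 ± 54.5 in ethanol and 334.4 ± 33.8 in oligomycin, with overlap.

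Of the 15 photosystem II genes 14 lay above 0 at 4 h, with a median of 0.24, and 1 rose. That gene was psbL, a small subunit of the photosystem II core. Its arrays read 241.3, 269.8 and 264.9 in ethanol and 313.5, 408.9 and 355.6 in oligomycin, with a clear gap between the groups. The rise was 0.44 (SE 0.11, adjusted p = 0.00762, limma). It was the only plastid call at 4 h kept under every alternative and without any one array, with adjusted p between 0.000885 and 0.0396. The gene psbN, whose product is needed for assembly of photosystem II, read 38.2, 49.8 and 63.6 in ethanol and 69.7, 71.2 and 91.5 in oligomycin. Its groups did not overlap, but the test was just missed (0.50, SE 0.18, adjusted p = 0.0501, limma). The gene psbM, another small subunit, varied widely, at 1378 ± 167 and 1708 ± 534. The reaction-centre gene psbA, picked out after its values had been seen, was at 83.2 ± 6.67 and 86.2 ± 18.2.

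**Figure D3:**
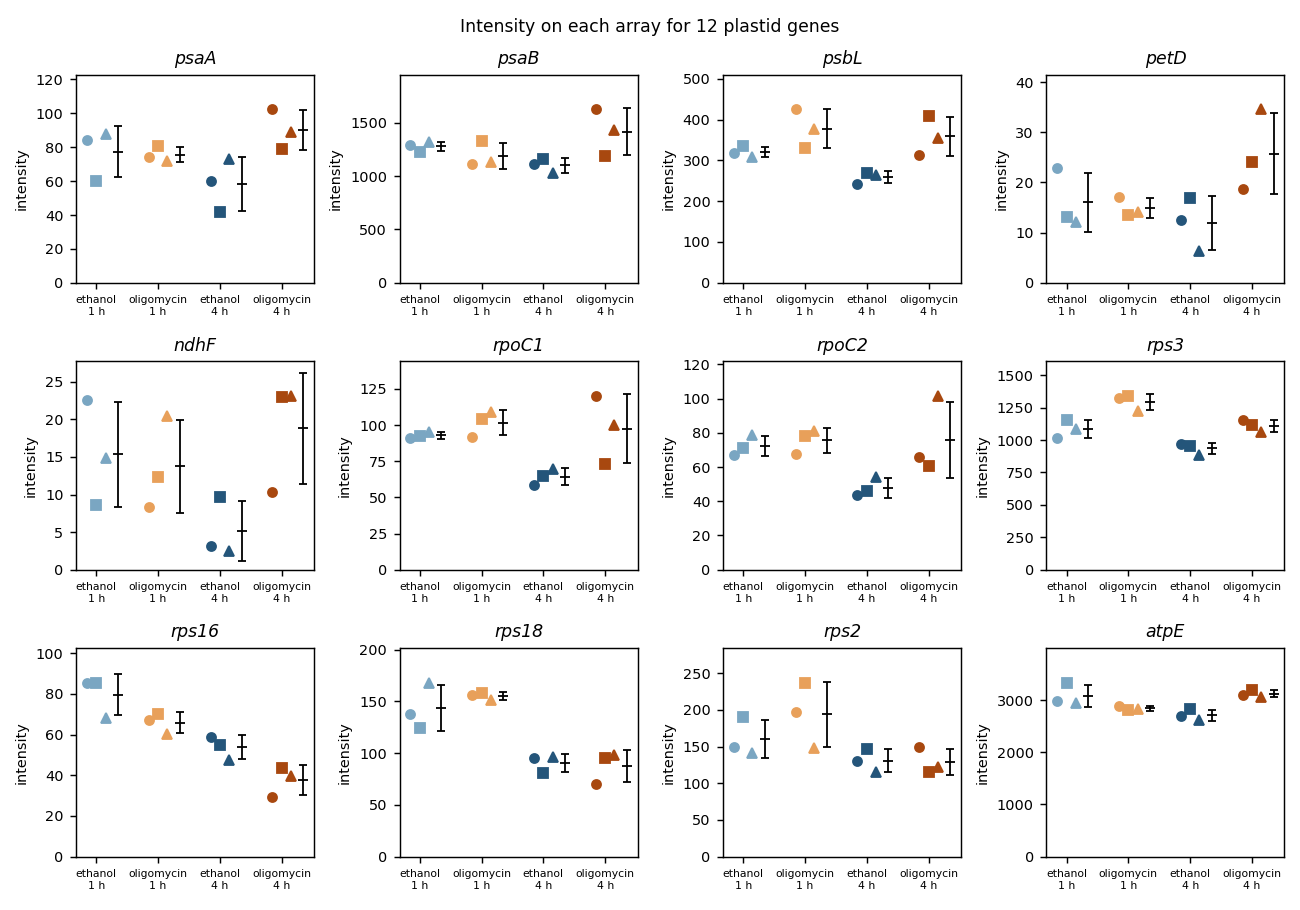
Array intensity (vertical axis, linear from 0) for 12 plastid genes in the 4 groups. Points are single arrays, with circle, square and triangle for replicates 1, 2 and 3, and the bar at their right is mean ± SD (n = 3); rps16 and rps18 are lower at 4 h than at 1 h in both treatments, while psaA, psaB, psbL, rpoC1 and rpoC2 are lowest in ethanol at 4 h.

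Of the 6 cytochrome b6f genes 5 lay above 0 and petD rose. It encodes subunit IV, and its arrays read 12.6, 17 and 6.3 in ethanol and 18.7, 24 and 34.6 in oligomycin, values near or below the added 16. The lowest oligomycin array stood a little above the highest ethanol array, and the rise was 0.58 (SE 0.17, adjusted p = 0.0188, limma). The call was lost without replicate 3 of either group. The neighbouring petB, cytochrome b6, was read at 1121 ± 87.8 and 1052 ± 36.8, with overlap. The small subunit gene petN was at 34.0 ± 9.93 and 53.3 ± 8.43, without overlap and without a call (0.48, SE 0.20, adjusted p = 0.0854, limma).

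No gene of the plastid ATP synthase was called at 4 h, although 5 of 6 lay above 0. The epsilon subunit gene atpE read 2693.6, 2828.8 and 2616 in ethanol and 3097.8, 3198.9 and 3069.9 in oligomycin. Its groups were well apart relative to their spread, and the change was 0.20 (SE 0.08, adjusted p = 0.0619, limma). The beta subunit gene atpB was at 3273 ± 479 and 3737 ± 706, with overlap (0.18, SE 0.16).

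Of the 10 genes of the NADH dehydrogenase-like complex, which passes electrons around photosystem I, 8 lay above 0 and ndhF rose. This membrane subunit gene, with a mean below 16, read 3.1, 9.7 and 2.5 in ethanol and 10.3, 23 and 23.1 in oligomycin. The groups did not overlap, but the lowest oligomycin array barely cleared the highest ethanol array. The change of 0.71 (SE 0.21, adjusted p = 0.0187, limma) was the largest of any member and was lost without any one of 4 arrays. Changes of ndhE (0.57, SE 0.23) and ndhD (0.35, SE 0.17) were not called, and their arrays overlapped. The gene ndhI, an iron-sulfur subunit, was at 1340 ± 69.5 and 1527 ± 75.4 without overlap and without a call (0.19, SE 0.10, adjusted p = 0.177, limma).

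The 8 other genes had no call at 4 h and a median of 0.00. The photosystem I assembly gene ycf4 was at 60.6 ± 1.40 in ethanol and 79.2 ± 9.32 in oligomycin, without overlap (0.31, SE 0.14, adjusted p = 0.120, limma). The gene ccsA, for haem attachment to c-type cytochromes, was at 462.5 ± 65.5 and 374.2 ± 31.1. The protease subunit gene clpP was at 794.0 ± 228 and 649.6 ± 126. Both of the latter overlapped.

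At 1 h no plastid gene differed by limma between oligomycin and ethanol, where 3.44% of all probe sets were called (2.3% higher and 1.14% lower). At an unadjusted p under 0.05 there were 5 plastid genes (7.25%), against 15.7% of all probe sets. Changes ran from -0.46 to 0.55 with a median of 0.03, against -0.04 over all probe sets. All 3 oligomycin arrays lay above the ethanol arrays for 4 genes (background 6.85%) and below them for 5 (background 12.9%). The gene rps3 was among the former, at 1088 ± 69.7 in ethanol and 1295 ± 64.1 in oligomycin (0.25, SE 0.08, adjusted p = 0.155, limma). The 1 h change and the 4 h change of rps3 differed by -0.01 (SE 0.12). Without replicate 2 of ethanol at 1 h, ndhK, a subunit of the NADH dehydrogenase-like complex, and psaI were called lower (adjusted p = 0.0258 and 0.0162, limma), and the median became -0.05. The same fit called 275 of all probe sets lower and 558 higher.

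The difference between the 4 h and 1 h effects was called for no plastid gene, where 17.8% of all probe sets were called (7.2% upward). At an unadjusted p under 0.05 there were 10 plastid genes (14.5%), against 30.1% of all probe sets, and the median difference was 0.11, against -0.05 over all probe sets. The closest to the threshold was atpE. At 1 h its arrays read 2995.2, 3332.8 and 2945.8 in ethanol and 2893.5, 2809 and 2832.7 in oligomycin, so every oligomycin array was lower. At 4 h every oligomycin array was higher, and the difference of the effects was 0.32 (SE 0.11, adjusted p = 0.0673, limma). For psbB, a core antenna protein of photosystem II, it was 0.51 (SE 0.18, adjusted p = 0.0686, limma). For psaB it was 0.45 (SE 0.16, adjusted p = 0.0780, limma). Leaving out 1 array gave between 0 and 3 calls, the 3 coming without replicate 2 of ethanol at 1 h (psbB, psaI and ycf4). Without replicate 2 of oligomycin at 4 h there were 2, psaB and rpoC1. Single calls came without replicate 2 of ethanol at 4 h (rpl20), replicate 3 of oligomycin at 1 h (psbN) or replicate 1 of oligomycin at 4 h (ndhF). All of these calls were upward, and the same fits called 1452 to 1563 of all probe sets upward.

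Within oligomycin, 4 plastid genes fell from 1 h to 4 h and none rose, where 22.8% and 10.8% of all probe sets did (33.7% in either direction). They were 4 of the 15 rps and rpl genes (26.7%), a share near that of all probe sets. For rps18, a small-subunit protein, the arrays read 156, 158.5 and 151.4 at 1 h and 70.2, 95.1 and 97.7 at 4 h. For rps16 they read 67, 70.3 and 60.4 at 1 h and 29.4, 43.4 and 39.8 at 4 h. In both genes every array of 4 h lay far below every array of 1 h. The falls were -0.74 for rps18 (SE 0.13, adjusted p = 0.000683, limma) and -0.62 for rps16 (SE 0.12, adjusted p = 0.00154, limma). Both were kept under every alternative and without any one array.

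The remaining falls were smaller. The small-subunit gene rps2 read 196.7, 236.8 and 148.2 at 1 h and 149.8, 115.9 and 122.4 at 4 h. These arrays overlapped slightly, and the change was -0.51 (SE 0.16, adjusted p = 0.0262, limma). The large-subunit gene rpl32, named after its values had been seen, read 612.8, 676 and 677.8 at 1 h and 434.9, 527.6 and 445.1 at 4 h, with no overlap (-0.47, SE 0.13, adjusted p = 0.0149, limma). The call of rps2 was lost without any one of 4 arrays and with quantile normalization. That of rpl32 was lost without replicate 1 or 3 of oligomycin at 4 h and with scaling to the hybridisation controls. With arrays centred on their median 3 plastid genes rose and 2 fell, and neither rps2 nor rpl32 was called. Of all probe sets 17.4% then rose and 11.9% fell. Quantile normalization gave 1 rise and 11 falls, beside 12.8% and 17.4% of all probe sets. Without replicate 2 of ethanol at 1 h, an array outside the comparison that enters the shared spread, there were 7 falls. Of all probe sets 5553 then fell.

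Over all 69 genes the median change within oligomycin was -0.09, the same as over all probe sets, and centring, which shifts both alike, gave 0.08 for each. With quantile normalization the median was -0.13 for the plastid genes and -0.03 over all probe sets. With scaling to the hybridisation controls these were -0.03 and -0.06. All 3 arrays of 4 h lay below those of 1 h for 13 genes (background 31.7%) and above them for 4, atpE, ycf4, psbB and petD (background 14.8%). The courses in ethanol and in oligomycin share no array. Both were downward for 41 genes. For 20 genes ethanol was downward and oligomycin upward, for 7 the reverse held, and for 1 both were upward. The oligomycin course stood above the ethanol course for 44 genes (63.8%), against 43.5% of all probe sets. This only restates the sign of the difference between the 4 h and 1 h effects, which was called for no plastid gene. For rps18 the ethanol course was close to the oligomycin one: 138.1, 124.6 and 167.8 at 1 h and 94.8, 80.4 and 96 at 4 h (-0.58, SE 0.13, adjusted p = 0.142, limma). The ethanol arrays of rps16 read 85.4, 85.4 and 68.1 at 1 h and 58.9, 54.9 and 47.4 at 4 h (-0.45, SE 0.12, adjusted p = 0.210, limma). The arrays of the times were apart for both genes in both treatments, and the test for a difference between the courses of rps18 gave an adjusted p of 0.625 (limma).

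**Figure D4:**
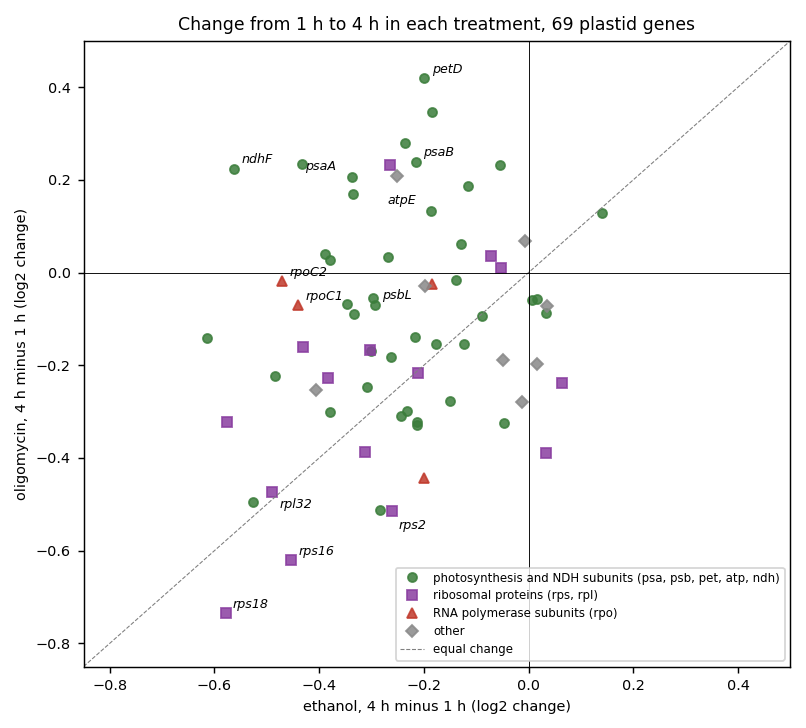
Log2 change from 1 h to 4 h in ethanol (horizontal axis) and in oligomycin (vertical axis) for 69 plastid genes, each a point coloured by role, with the dashed line at equal change. Of the points 61 lie left of 0 and 44 lie above the dashed line, where the 4 h effect of oligomycin exceeds the 1 h effect. The genes rps18 and rps16 have the lowest values in oligomycin.

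Genes of a shared transcription unit did not always move alike. In the psaA-psaB-rps14 unit both psa genes rose at 4 h while rps14, too dim for a clear reading, was at -0.10. In the rpoB-rpoC1-rpoC2 unit the changes ran from 0.23 to 0.50 and 2 of 3 genes rose. In the psbB-psbT-psbH-petB-petD unit petD rose, and the 5 changes ran from -0.11 to 0.58. In the psbE-psbF-psbL-psbJ unit, for photosystem II subunits, the changes ran from 0.10 to 0.44. After the group means had been removed, pairs of genes from 1 unit correlated over the 12 arrays with a median r of 0.29 (79 pairs), against 0.15 for other pairs (1937 pairs, over the 64 genes with a mean of 16 or more). These pairs share arrays and scaling, and the units were written from general knowledge. The first component of these residuals held 26.3% of their variance and the second 24.6%. Residual SDs of the members had a median of 0.196 against 0.158 for all probe sets.

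Measured nuclear genes of the same complexes lay below ethanol at 4 h. Of 28 listed nuclear subunits of complexes with plastid-encoded partners, 8 had a single-gene probe set, and 4 of them fell, with all 8 below 0 and a median of -0.35. Of all probe sets 25.3% fell and 63.8% were below 0, with a median of -0.10. ATPC1, the gamma subunit of the plastid ATP synthase, fell from 1051 ± 156 in ethanol to 601.0 ± 65.0 in oligomycin (-0.79, SE 0.11, adjusted p = 0.000146, limma). PSAE-1, a stromal subunit of photosystem I, fell from 1557 ± 171 to 1120 ± 152 (-0.47, SE 0.14, adjusted p = 0.0210, limma). PSAN, of photosystem I, and PSBY, of photosystem II, fell by 0.38 and by 0.32 on the log2 scale (adjusted p = 0.0265 and 0.0358, limma). Of the 42 plastid genes of the corresponding psa, psb, pet, atp and ndh groups 5 rose (11.9%, near the background) and none fell, 36 lay above 0, and the median was 0.19. The difference between the nuclear and plastid lists was not tested.

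Few of the nuclear regulators of plastid RNA were read. Of 18 listed genes for plastid RNA processing and decay 2 had a single-gene probe set. Both fell at 4 h, where 25.3% of all probe sets did. CRP1 (AT5G42310), a pentatricopeptide repeat protein whose maize counterpart is needed for petA translation and petD transcript processing, fell from 55.7 ± 3.65 to 37.3 ± 1.63 (-0.43, SE 0.08, adjusted p = 0.00150, limma). PPR10 (AT2G18940), whose maize counterpart protects the ends of atpH and psaJ transcripts, fell from 39.6 ± 8.38 to 18.1 ± 4.29 (-0.70, SE 0.13, adjusted p = 0.000789, limma). Of 8 sigma factors and phage-type polymerases, RPOTmp (AT5G15700) alone had one, at 10.9 ± 8.92 and 7.0 ± 4.68. None of 12 proteins associated with the plastid-encoded polymerase had one.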

How the data were processed

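The deposited table gives linear array intensity per probe set, from 0 to 6149.7 with 166 zeros, and the 2% trimmed mean lies near 100 on every array. RMA is named per the submitters' processing notes, with no version; zeros and linear values are not the usual form of RMA output, so the authors' scaling is not known. Gene names came from the platform annotation and a TAIR10.1 gene table, used for names only. A log2 table had been assumed when the tests were designed, so log2(intensity + 16) was computed first. After leaving out 64 control probe sets, limma 3.58.1 in R 4.3.3 fitted the 4 group means to 22746 probe sets (8 residual and 4.14 prior degrees of freedom), with two-sided tests and Benjamini-Hochberg adjustment over all probe sets of a contrast. A check of the code ran the fit on simulated data with independent noise, which cannot speak to shared variation or scaling in these arrays.

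Contrasts were oligomycin against ethanol at each time, their difference, and 4 h against 1 h within each treatment. Those that share arrays are given side by side only. Genes named were every member called in an effect of oligomycin or in their difference, the 3 largest calls over time in each direction, the brightest of each symbol group, and each group's 2 largest changes at 4 h among genes with a mean of at least 16, with up to 3 calls per nuclear list. Others (rpl32, rpoB, rps14, psaI, psaJ, psbA, psbB, ndhK, rbcL, accD, the nuclear PSBY) were named after their values were seen. The members and lists were chosen with earlier results of these data known. Alternatives covered scaling, pseudocount, filters, spread, a replicate block and leaving out arrays. The sources used here give no batch or scan date.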

Additional observations from a re-analysis of the deposited data

Results flagged for a closer look

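The plastid gene atpE was picked out because its arrays moved in opposite directions. All 3 oligomycin arrays lay below the ethanol arrays at 1 h and above them at 4 h, and from 1 h to 4 h all arrays went down in ethanol and up in oligomycin. The difference of the 4 h and 1 h effects was 0.32 (adjusted p = 0.0673, limma). It was called with arrays centred on their median (adjusted p = 0.0176, limma) and with a pseudocount of 32 (adjusted p = 0.0246, limma). It was also called with an intensity trend and robust prior (adjusted p = 0.0431, limma). It was not called with quantile normalization, scaling to the hybridisation controls, a pseudocount of 1 or the replicate block. Leaving out the dimmest probe sets, or any single array, also gave no call of atpE.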

How the results depend on the processing

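Counts of called plastid genes depended on the processing; the causes were not tested, except that centring shifts all changes of a contrast alike. With arrays centred on their median, 24 plastid genes were called at 4 h with a median of 0.35, where 16.9% of all probe sets rose and 15% fell. For the difference of the effects 3 were called with a median of 0.23, where 9.54% of all probe sets were called higher and 6.58% lower. The oligomycin course had a median of 0.0793. For the difference of the effects 1 gene was called with quantile normalization or with scaling to the hybridisation controls (median 0.22). The same held with a pseudocount of 32 or with the intensity trend and robust prior, and 3 were called without the dimmest 40% of probe sets. Of all probe sets, quantile normalization called 1760 higher and 1883 lower, and scaling to the hybridisation controls 1494 and 718. The counts were 1727 and 2568 with the pseudocount of 32, and 1680 and 2529 with the trend and robust prior. Without the dimmest 40% they were 1569 and 2743. Scaling to the hybridisation controls gave the ethanol course a median of -0.33. The oligomycin course had 12 calls with quantile normalization, beside 2913 higher and 3949 lower of all probe sets. It had 7 with only the arrays compared, beside 2585 higher and 5380 lower. Leaving out 1 array in turn gave 0 to 2 calls at 1 h (medians -0.0506 to 0.0908), 3 to 11 at 4 h (0.11 to 0.22), 0 to 3 for the difference (0.0329 to 0.17), 0 to 1 in ethanol (-0.29 to -0.20) and 3 to 7 in oligomycin (-0.16 to -0.05). Of all probe sets these fits called 343 to 558 higher and 98 to 275 lower at 1 h. At 4 h they called 2324 to 2721 higher and 4717 to 6113 lower. For the difference they called 1397 to 1645 higher and 1830 to 2372 lower. In ethanol the ranges were 0 to 90 and 0 to 43, and in oligomycin 2161 to 2622 and 4122 to 5553. Leaving out 1 array left 57 to 67 plastid genes lower in the ethanol course and 45 to 55 higher with oligomycin at 4 h. No called gene changed sign under any of these.

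With the replicate number as a block, 10 genes were called at 4 h, 5 in the oligomycin course and 0 in the other contrasts. Of all probe sets that fit called 2584 higher and 5694 lower at 4 h, and 2466 and 5114 in the oligomycin course. The counts were 515 and 235 at 1 h, 1619 and 2282 for the difference of the effects, and 0 and 1 in ethanol. Each group holds every replicate number once, so the block could not move a fitted change or a median. The block added a call of psbN at 4 h (adjusted p = 0.0320, limma). Deviations of same-numbered arrays correlated over 0.1 in 3 of 18 pairs over all probe sets and in 6 of 18 over the members. Over the members these included all 3 pairs of ethanol and oligomycin at 4 h (0.337, 0.266 and 0.158), which over all probe sets were 0.0969, -0.00458 and 0.0431. The labels tie no number to a shared culture or day, so no pairing was assumed. A fit with only the arrays compared adds nothing for the difference of the effects, which uses all arrays.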

Other observations

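The 8 plastid probe sets that match both copies of a repeated gene were outside the rule and are given without names. With oligomycin at 4 h all 8 lay above 0, as 36.2% of all probe sets did, with a median of 0.16 against -0.10 over all probe sets. None was called by limma, where 36.7% of all probe sets were. In ethanol 7 of 8 were lower at 4 h than at 1 h, as 59.3% of all probe sets were. The median was -0.26 against -0.03 over all probe sets. For 4 of the 8 all 3 arrays of 4 h lay below those of 1 h, against a background of 9.1%. From 1 h to 4 h in oligomycin 4 lay above 0 and 4 below, where 36.0% and 63.9% of all probe sets did. Of the 8, 1 fell, where 22.8% of all probe sets did.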
